A study of Mus musculus with 23 samples.

Results

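A set of 9 transcription factors of cortical and hippocampal pyramidal neurons were followed through every RNA-seq library of the series: Neurod1, Neurod2, Neurod6, Emx1, Emx2, Tbr1, Zbtb20, Bhlhe22 and Lhx2. The 9 genes were chosen by symbol and matched to the mouse gene identifiers of the count table, which holds 45706 genes. All 9 passed the filter on low counts that left 18823 genes for testing. The series compared 3 populations of mouse hippocampal neurons: CamK and Grik excitatory pyramidal cells, which the series' design text assigns to CA1 and CA3, and SST+ inhibitory interneurons. Each population was sampled as wild type (WT) and as a conditional Slm2 knockout (cKO); Slm2 is another name of Khdrbs3, an RNA-binding splicing regulator. The groups held 4 CamK WT, 3 CamK cKO, 4 Grik WT, 4 Grik cKO, 4 SST WT and 4 SST cKO libraries of polyA RNA. Strain, age, the Cre drivers and how the cells or their RNA were isolated are not given in the sources used here, and 1 column name spells the Grik population as Grik4. The labels do not say whether replicates came from separate animals, so p-values measure only the spread between these libraries.

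These factors act mainly while excitatory neurons of the cortex and hippocampus are born and take on their identity, and several stay on in the adult. Neurod1, Neurod2, Neurod6 and Bhlhe22 are basic helix-loop-helix (bHLH) proteins: the Neurod factors pair with E proteins and activate genes through E-boxes, short DNA elements of the form CANNTG, whereas Bhlhe22 is a repressor related to Olig proteins. Emx1, Emx2 and Lhx2 are homeodomain proteins that pattern the dorsal telencephalon, and Lhx2 also carries LIM domains bound by Ldb cofactors. Tbr1 is a T-box factor of early-born glutamatergic neurons, and Zbtb20 is a zinc-finger repressor needed for CA1 identity. Interneurons come from the ventral telencephalon and use other factors, such as Lhx6.

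The genes lie on GRCm38 as follows. Neurod1 is on chr2:79452521-79456751, Neurod2 on chr11:98325415-98329648 and Neurod6 on chr6:55677822-55681263, all on the minus strand with 2 merged exons each. The other 6 are on the plus strand. Bhlhe22 is a single-exon gene at chr3:18054174-18057517, Emx1 lies at chr6:85187438-85204462 and Emx2 at chr19:59458372-59465357. Tbr1 lies at chr2:61802930-61814114, Lhx2 at chr2:38339281-38369733 and Zbtb20, by far the longest locus, at chr16:42875881-43642602. Some members share exon bases with a neighbour: Neurod1 shares 201 with Cerkl on its own strand and 154 with Gm26755 on the other, Emx2 shares 264 with the antisense Emx2os, and Zbtb20 shares 104 with the antisense Gm9968 and 83 with Mir568. No source used here states how strand was treated in counting, so reads in those bases cannot be assigned to 1 gene.

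Promoter sequence from RefSeq (GRCm38.p6) was matched for 8 of the 9 members. Those of 3 genes are shown as examples. Neurod6 and Zbtb20 differed between WT CamK and WT Grik, as described further on, and Neurod2, a close relative of Neurod6, did not pass that test. Neurod1 also differed, but its sequence is not printed. Each run is the 250 bases before the RefSeq start, 5′ to 3′ on the gene's strand, at chr6:55681264-55681513 (minus strand) for Neurod6, chr11:98329646-98329895 (minus strand) for Neurod2 and chr16:43247034-43247283 (plus strand) for Zbtb20. Capitals mark E-boxes. The RefSeq start is not always the outermost start in GENCODE: the Zbtb20 window begins 371153 bases inside the locus given above and holds no exon base of the gene.
Neurod6: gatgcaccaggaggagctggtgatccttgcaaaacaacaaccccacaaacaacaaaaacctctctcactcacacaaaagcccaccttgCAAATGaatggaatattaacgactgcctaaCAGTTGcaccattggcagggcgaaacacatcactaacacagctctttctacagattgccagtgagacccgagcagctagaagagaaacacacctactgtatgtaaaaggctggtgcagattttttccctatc
Neurod2: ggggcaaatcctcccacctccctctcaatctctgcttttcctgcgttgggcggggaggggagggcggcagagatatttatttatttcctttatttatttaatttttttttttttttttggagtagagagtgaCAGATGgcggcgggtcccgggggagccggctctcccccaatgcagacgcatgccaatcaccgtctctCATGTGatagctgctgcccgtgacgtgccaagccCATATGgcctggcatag
Zbtb20: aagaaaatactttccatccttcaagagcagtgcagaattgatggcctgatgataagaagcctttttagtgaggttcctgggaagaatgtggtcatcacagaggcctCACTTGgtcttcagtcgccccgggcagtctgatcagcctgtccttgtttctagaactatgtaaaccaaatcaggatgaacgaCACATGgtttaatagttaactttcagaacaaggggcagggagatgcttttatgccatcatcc
The Neurod2 window holds 3 E-boxes, and the Neurod6 and Zbtb20 windows hold 2 each. The windows of Neurod1, Emx1 and Tbr1 hold 1 each, and those of Emx2 and of both Lhx2 starts hold 0. By GENCODE the windows of Emx1, Tbr1, Emx2 and 1 of the Lhx2 starts lie wholly within exons of their own gene, as do 115 of the 250 bases for Neurod1 and 3 for Neurod2. Of 32851 RefSeq promoter windows cut to the same 250 bases, 66.2% hold at least 1 CANNTG, which reads the same on both strands. Of its forms, CAGATG on either strand was found in Neurod2 alone (14.4% of all windows), CATATG in Neurod1 and Neurod2 (3.5%) and CAGCTG in none of the 8 (13.0%). The homeodomain core TAATTA was found in Tbr1 alone, with 2 matches (4.8% of windows), and the T-box element AGGTGTGA on either strand in none (1.1%). A match describes letters only and is not evidence of binding.

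Library totals ran from 87612006 to 112993538 gene reads, so every member was counted on at least 44 reads in each library, the lowest being Emx2 in SST cKO replicate 4. Levels are given as CPM, reads per 1000000 of the library size scaled by the trimmed mean of M-values. The summed level of 5 CA1 markers was 1192 to 1636 CPM in CamK WT, 83.1 to 116 in Grik WT and 432 to 462 in SST WT, where 1 of the 5, Mpped1, had a mean of 334 CPM. That of 6 CA3 markers was 93.8 to 108, 428 to 501 and 47.7 to 59.5 CPM in the same order, and that of 15 interneuron markers was 7358 to 8112 in SST WT against 51.9 to 165 in CamK WT and 87.7 to 126 in Grik WT. Markers of other cells differed too. Summed over 6 genes each, astrocyte markers reached 137 to 220 CPM in CamK WT, 584 to 623 in Grik WT and 144 to 295 in SST WT, and oligodendrocyte-lineage markers 138 to 207, 640 to 859 and 258 to 569; none of these genes was at 0 reads in any library. Slc1a2 made up most of the astrocyte sum: without it the other 5 markers gave 9.01 to 21.0 CPM in CamK WT, 50.9 to 60.9 in Grik WT and 53.5 to 105 in SST WT, so Grik was no longer above SST. Counted over the whole gene, the targeted Khdrbs3 had a lower mean in the libraries labelled cKO in CamK and SST, but not in Grik. It was 278 ± 25.1 CPM (SD, n = 3) in CamK cKO against 373 ± 27.0 (n = 4) in CamK WT. In SST it was 93.8 ± 10.5 in cKO against 130 ± 8.31 in WT (n = 4 each). In Grik it was 414 ± 18.0 in cKO against 336 ± 8.61 in WT (n = 4 each). By edgeR's quasi-likelihood test the difference passed in SST (adjusted p = 0.0309) and not in CamK (adjusted p = 0.114) or Grik (adjusted p = 0.499). Of 31 alternatives, 2 called Khdrbs3 lower in CamK cKO (DESeq2 and limma-voom) and 1 called it higher in Grik cKO (limma-voom). For SST, 7 of 31 alternatives ended the call (adjusted p up to 0.954): limma-voom, SST fitted alone, and leaving out SST WT replicates 1 or 5 or SST cKO replicates 3, 4 or 5. The effect in Grik differed from that in SST by 0.78 (adjusted p = 0.00135), a call that held under all 31 alternatives. That in CamK differed from Grik by -0.73 (adjusted p = 0.0154), a call lost with the replicate block and without CamK cKO replicate 6 or Grik cKO replicate 2 (adjusted p up to 0.118). Counts per gene do not show whether part of a transcript was lost, so the state of the knockout was not tested. Knockout groups are called the libraries labelled cKO.

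All 9 factors were higher in both pyramidal populations than in SST interneurons. Neurod6 differed most, about 20.8-fold between the CamK and SST WT means and 32.2-fold between the Grik and SST WT means, and Zbtb20 least against CamK at 2.85-fold. Lhx2 had the smallest difference against Grik, at 5.79-fold. Because these are bulk libraries, fewer expressing cells and less RNA per cell cannot be told apart.

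**Figure D1:**
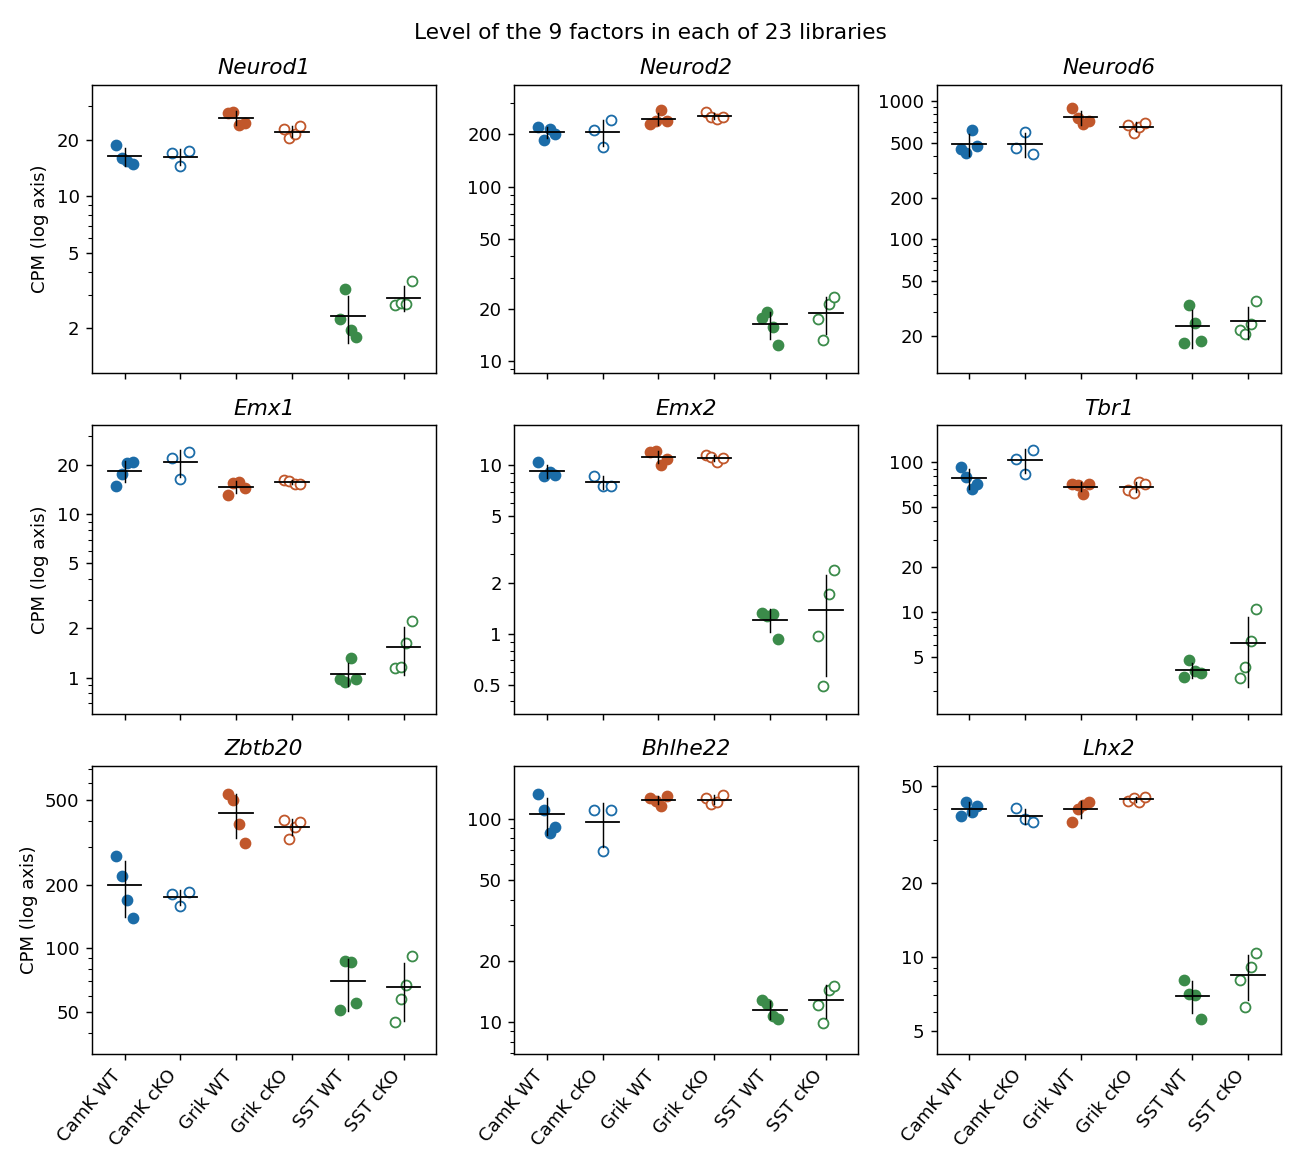
CPM on a log axis for the 9 factors in each of 23 libraries, by population and genotype; filled circles are WT, open circles are libraries labelled cKO, horizontal lines are means and vertical lines are ± SD (n = 3 or 4). All SST libraries lie below all CamK and Grik libraries for every factor, and only Neurod1, Neurod6 and Zbtb20 show a step between CamK and Grik that passed the test in WT.

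Among the Neurod factors, Neurod6 was the most abundant. Its level was 449, 419, 619 and 474 CPM in CamK WT replicates 2, 3, 4 and 5, and 893, 755, 680 and 715 CPM in Grik WT replicates 3, 4, 5 and 6. In SST WT replicates 1, 2, 3 and 5 it was 17.9, 33.3, 25.0 and 18.3 CPM. The 3 WT groups did not overlap, and the highest SST WT library, at 33.3 CPM, stood against 419 CPM in the lowest CamK WT library. Over both genotypes CamK, at 414 to 619 CPM, and Grik, at 584 to 893 CPM, overlapped, and SST reached 35.6 CPM. The log2 difference was 4.38 (SE 0.22, adjusted p = 3.25e-13 by edgeR's quasi-likelihood test) for CamK against SST and 5.01 (SE 0.22, adjusted p = 4.9e-14) for Grik against SST.

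Neurod2, which drives maturation of glutamatergic neurons and their synapses, lay at 218, 186, 214 and 200 CPM in CamK WT and at 229, 237, 273 and 236 CPM in Grik WT. Its SST WT levels were 17.8, 19.2, 15.7 and 12.5 CPM, again with no overlap. The differences from SST were 3.65 (SE 0.15, adjusted p = 1.95e-15) for CamK and 3.90 (SE 0.15, adjusted p = 5.3e-16) for Grik on the log2 scale. Neurod1, known for its part in granule cell formation, was lower, at 18.8, 16.0, 15.4 and 14.9 CPM in CamK WT and 27.8, 28.0, 23.9 and 24.6 CPM in Grik WT. It fell to 2.25, 3.24, 1.97 and 1.79 CPM in SST WT. Its log2 differences from SST were 2.82 (SE 0.14, adjusted p = 1.38e-14) and 3.49 (SE 0.15, adjusted p = 2.92e-16), and no SST library reached a pyramidal one.

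Bhlhe22, the repressor of the bHLH group, was 133, 111, 85.0 and 91.5 CPM in CamK WT replicates 2 to 5 and varied far less in Grik WT, at 127, 122, 116 and 129 CPM. In SST WT it was 12.8, 12.2, 10.7 and 10.3 CPM, and the log2 differences were 3.19 (SE 0.16, adjusted p = 2.77e-14) and 3.43 (SE 0.16, adjusted p = 7.54e-15). The SST libraries thus lay in a narrow band below every pyramidal library.

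Of the homeodomain factors, Emx1 showed one of the wider gaps. It was 14.9, 17.8, 20.7 and 20.8 CPM in CamK WT, 13.1, 15.6, 15.8 and 14.6 CPM in Grik WT and 0.985, 0.946, 1.31 and 0.987 CPM in SST WT. The log2 differences from SST were 4.13 (SE 0.18, adjusted p = 1.12e-15) and 3.80 (SE 0.18, adjusted p = 3.24e-15). Emx2, its paralog, reached 8.61 to 10.4 CPM in CamK WT, 10.1 to 12.1 in Grik WT and 0.936 to 1.33 in SST WT, with differences of 2.92 (SE 0.27, adjusted p = 1.84e-09) and 3.21 (SE 0.27, adjusted p = 4.03e-10). The antisense Emx2os moved beside it, at 7.47 ± 0.802, 8.37 ± 0.753 and 0.744 ± 0.204 CPM (SD, n = 4 each), and the part of shared reads was not tested. Lhx2 was nearly level between the pyramidal populations, at 37.5 to 43.1 CPM in CamK WT and 35.7 to 42.8 in Grik WT, against 5.58 to 8.06 in SST WT. Its log2 differences from SST were 2.54 (SE 0.12, adjusted p = 3.19e-15) and 2.53 (SE 0.12, adjusted p = 2.54e-15).

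Tbr1 was 92.8, 79.4, 66.1 and 71.5 CPM in CamK WT and 71.1, 69.7, 61.2 and 71.2 CPM in Grik WT, so the 2 pyramidal groups overlapped. Its SST WT levels were 3.68, 4.79, 4.07 and 3.94 CPM. The log2 differences from SST were 4.23 (SE 0.24, adjusted p = 3.77e-12) and 4.05 (SE 0.24, adjusted p = 6.33e-12). Zbtb20 was the member with the most SST signal, at 51.1, 87.1, 86.7 and 55.3 CPM. It was 272, 219, 168 and 139 CPM in CamK WT and 532, 500, 385 and 316 CPM in Grik WT. Although the 3 groups did not overlap, its difference between CamK and SST was the smallest of the 9, at 1.51 (SE 0.24, adjusted p = 1.89e-05) on the log2 scale, against 2.63 (SE 0.25, adjusted p = 1.91e-08) for Grik.

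**Figure D2:**
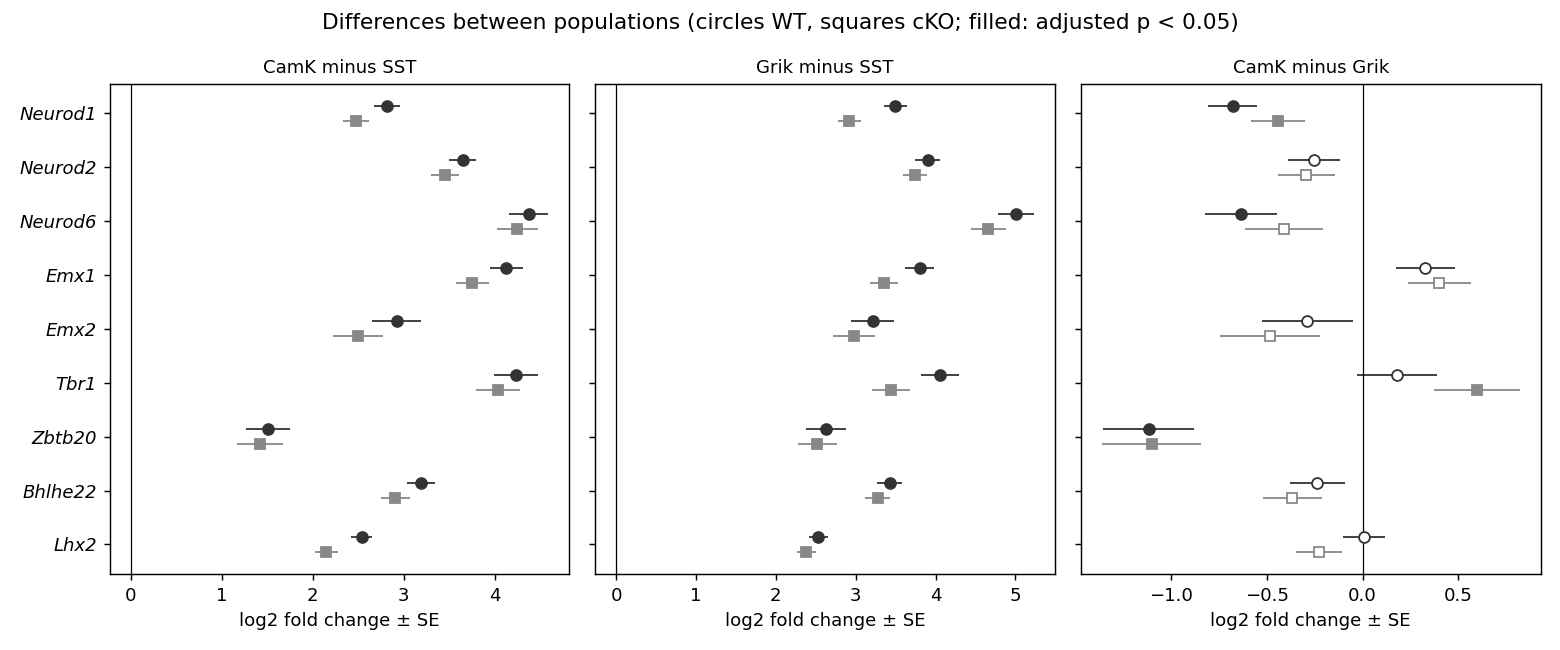
Log2 fold change ± SE of each factor between CamK and SST, Grik and SST, and CamK and Grik, for WT libraries (circles) and libraries labelled cKO (squares); filled symbols passed an adjusted p of 0.05. Every symbol in both SST panels is filled and above 0, from 1.42 to 5.01, whereas the CamK and Grik panel spans -1.12 to 0.60.

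In counts, 9 of 9 members were called higher in WT CamK than in WT SST, where 29.5% of all genes tested were called higher and 30.5% lower. The members' median log2 difference was 3.19, against -0.02 over all genes tested. For WT Grik against WT SST the count was again 9 of 9, with 28.1% of all genes called higher and 29.2% lower, and the medians were 3.49 and -0.03. Every member's libraries were separate between the groups in both comparisons, as were those of 53.9% and 52.3% of all genes. The libraries labelled cKO repeated this in separate samples. All 9 were higher in CamK (26.9% of all genes higher, 29.4% lower) and in Grik (27.9% higher, 30.0% lower) than in SST, with medians of 2.91 and 3.28. The members were chosen as pyramidal neuron factors, with earlier results of these data known. Their counts against SST therefore describe the set and are no independent test.

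The signal left in SST libraries differed between members. As a percentage of the CamK and Grik WT means, SST WT libraries held 4.82% and 3.11% for Neurod6, 5.32% and 6.03% for Tbr1, and 5.71% and 7.16% for Emx1. At the other end they held 17.2% and 17.3% for Lhx2 and 35.1% and 16.2% for Zbtb20. The 4 markers of excitatory neurons, measured the same way, fell in the same span: Nrgn, a postsynaptic calmodulin-binding protein, 5.59% and 6.45%; Sv2b, a synaptic vesicle protein, 9.50% and 4.80%; Slc17a7, the vesicular glutamate transporter VGLUT1, 8.72% and 5.32%; and Camk2a, a kinase of excitatory synapses, 17.9% and 15.9%. Tbr1 and Emx1 thus stood near Nrgn, Neurod6 lay below all 4 markers in both comparisons, and Zbtb20 alone lay above Camk2a in the comparison with CamK. Whether the SST signal came from interneurons or from pyramidal RNA in those libraries was not tested.

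**Figure D3:**
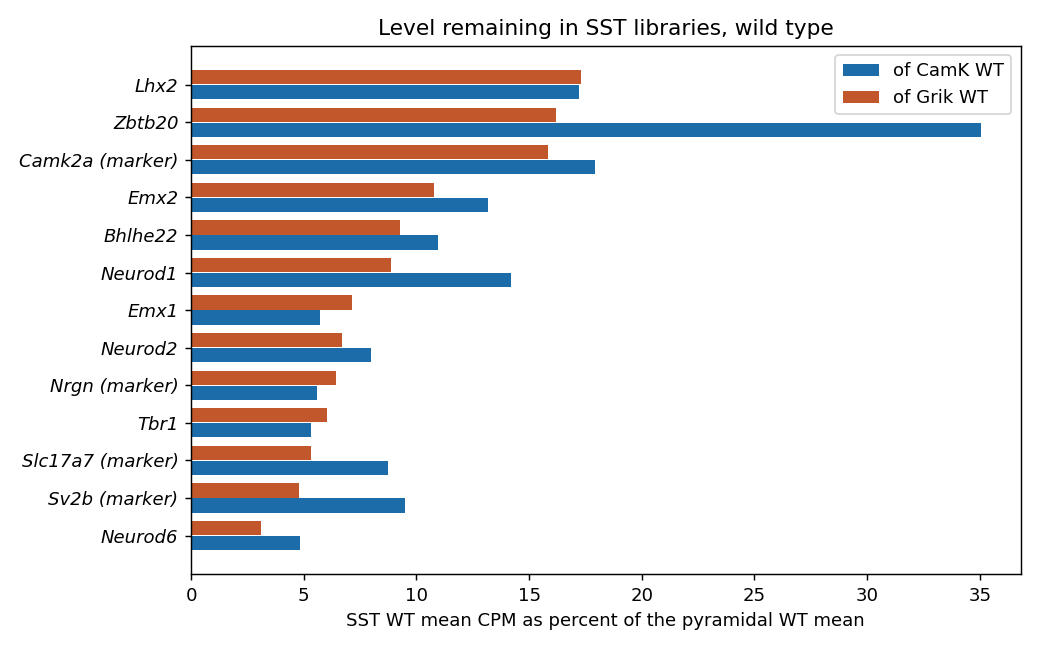
Mean CPM of SST WT libraries as a percentage of the CamK WT mean (blue) and Grik WT mean (orange), n = 4 libraries per group, for the 9 factors and 4 excitatory markers. Neurod6 sits lowest, at 4.82% and 3.11%, and Zbtb20 has the longest bar, at 35.1% of CamK.

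Scaled by exon length (RPKM, CPM per kilobase of merged exon), the order of the members was similar in the 3 populations. In CamK WT it ran from Neurod6 at 228 ± 41.1 through Neurod2 at 65.1 ± 4.63, Bhlhe22 at 31.4 ± 6.46 and Tbr1 at 14.1 ± 2.11 RPKM (SD, n = 4). Below them Lhx2 (9.17 ± 0.557), Emx1 (8.48 ± 1.28) and Zbtb20 (6.50 ± 1.91) each overlapped with the next, down to Neurod1 (5.96 ± 0.647). Emx2 was last at 3.07 ± 0.273 and overlapped with none. In Grik WT the same 3 bHLH genes led, with Neurod6 at 354 ± 43.3, Neurod2 at 77.6 ± 6.28 and Bhlhe22 at 37.0 ± 1.79 RPKM. Zbtb20, at 14.1 ± 3.28, then overlapped with Tbr1, at 12.4 ± 0.871. Neurod1 (9.55 ± 0.776) overlapped with Lhx2 (9.13 ± 0.719), followed by Emx1 (6.76 ± 0.581) and Emx2 (3.75 ± 0.325). In SST WT Neurod6 still led at 11.0 ± 3.35, ahead of Neurod2 at 5.19 ± 0.933, Bhlhe22 at 3.43 ± 0.351. Zbtb20, at 2.28 ± 0.636, overlapped with Lhx2 at 1.58 ± 0.233, Neurod1 and Tbr1 overlapped at 0.848 ± 0.237 and 0.751 ± 0.0872, and Emx1 and Emx2 overlapped at 0.484 ± 0.0777 and 0.405 ± 0.0624. Zbtb20 lengths add up many alternative exons, so its RPKM is low for its read count.

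Between the pyramidal populations, 3 of the 9 factors were lower in WT CamK than in WT Grik and none was higher; 21.1% of all genes tested were called lower and 20.9% higher. Zbtb20 differed most, by -1.12 on the log2 scale (SE 0.24, adjusted p = 0.000792), or 2.17-fold between the means of 200 ± 58.8 CPM in CamK and 433 ± 101 CPM in Grik (SD, n = 4). Neurod1 differed by -0.68 (SE 0.13, adjusted p = 0.000149), and Neurod6 by -0.63 (SE 0.19, adjusted p = 0.010). All 4 CamK libraries lay below all 4 Grik libraries for these genes and for Neurod2, whose difference of -0.25 (SE 0.14, adjusted p = 0.144) did not pass; 38.3% of all genes were separate in this way. Lhx2 differed by 0.0067 (SE 0.11) and Tbr1 by 0.18 (SE 0.21, adjusted p = 0.521). Emx1, at 0.33 (SE 0.15, adjusted p = 0.0918), was the only homeodomain factor with a higher CamK mean beyond its standard error. Of these uncalled members, Emx1 was called under 4 of 31 alternatives, Neurod2 and Emx2 under 2 each (limma-voom and the fit of the compared populations alone), Bhlhe22 without CamK WT replicate 2 (-0.37, adjusted p = 0.0327), and Tbr1 with a covariate for non-neuronal markers.

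The libraries labelled cKO gave a partly different list. Zbtb20 (-1.10, SE 0.26, adjusted p = 0.00235) and Neurod1 (-0.44, SE 0.14, adjusted p = 0.0162) were again lower in CamK, and Tbr1 was higher (0.60, SE 0.22, adjusted p = 0.044); 18.3% of all genes were called lower and 17.4% higher. Neurod6 stood at -0.41 (SE 0.20, adjusted p = 0.131) and Emx1 at 0.40 (SE 0.17, adjusted p = 0.0618). Emx1 was called under 10 of 31 alternatives, Bhlhe22 under 5, Emx2 under 3, and Neurod6, Neurod2 and Lhx2 under 2 each. The libraries of 8 members, all but Neurod6, did not overlap between the groups, as for 43.9% of all genes. The Tbr1 call was lost under 10 of 31 alternatives, with an adjusted p of up to 0.182, reached when CamK cKO replicate 6 was left out; it was also lost without the filter on low counts and without CamK cKO replicate 4, CamK WT replicate 5, Grik cKO replicates 1, 2 or 4, SST cKO replicate 5, and SST WT replicates 3 or 5. Leaving out CamK cKO replicate 5 or Grik cKO replicate 4 ended the Neurod1 call (adjusted p of 0.0845 and 0.0518), as did the replicate block (-0.31, adjusted p = 0.102). In CamK cKO replicates 4, 5 and 6 Tbr1 was 105, 82.9 and 120 CPM, each above the 61.7 to 73.1 CPM of the Grik cKO libraries.

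Markers of other cells moved with this comparison. A score of non-neuronal markers, the mean log2 CPM of the astrocyte, oligodendrocyte-lineage, microglial and endothelial lists, was 0.01 to 1.18 in CamK WT and 2.36 to 2.95 in Grik WT, with no overlap, so score and population cannot be told apart by these groups alone. With the score as a covariate the 3 WT calls were lost: Zbtb20 became -0.60 (adjusted p = 0.285), Neurod1 -0.46 (adjusted p = 0.157) and Neurod6 -0.28 (adjusted p = 0.608), and Tbr1 became 0.98 (adjusted p = 0.0231). Under the other 30 alternatives those 3 WT calls held. In the libraries labelled cKO the covariate ended the calls of Zbtb20 (-0.70, adjusted p = 0.154) and Neurod1 (-0.27, adjusted p = 0.36) as well, and it was the only alternative that ended the Zbtb20 call. In the same fit all 9 calls against SST held.

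The spread within the pyramidal populations differed between members. Over the 7 CamK libraries Zbtb20 varied 1.96-fold between its lowest and highest library, Bhlhe22 1.93-fold and Tbr1 1.81-fold, whereas Lhx2 varied 1.21-fold. Over the 8 Grik libraries Zbtb20 varied 1.69-fold, Bhlhe22 1.14-fold and Tbr1 1.19-fold. Neurod6, Neurod1 and Lhx2 had the wider range in Grik, at 1.53-fold, 1.37-fold and 1.27-fold against 1.49-fold, 1.30-fold and 1.21-fold in CamK. CamK libraries also differed in 6 markers of dentate granule cells. These varied from 1.53-fold for Lct to 3.65-fold for Dsp over the CamK libraries, with Prox1, the homeobox factor of granule cells, at 2.82-fold, and from 1.26-fold to 1.93-fold over the Grik libraries. Their summed level was 462, 382, 199 and 286 CPM in CamK WT replicates 2, 3, 4 and 5 and 351, 237 and 410 CPM in CamK cKO replicates 4, 5 and 6. Neurod6 was highest, at 619 and 601 CPM, in the 2 libraries with the lowest dentate sums, WT replicate 4 and cKO replicate 5. Bhlhe22 was lowest in those same 2, at 85.0 and 69.1 CPM, and highest, at 133 CPM, in WT replicate 2, which had the highest dentate sum. The same 2 libraries had the highest CA1 marker sums of the 7, at 1636 and 1785 CPM against 1077 to 1421 in the others. Zbtb20 was highest in CamK WT replicate 2, at 272 CPM, but lowest in WT replicate 5, at 139 CPM. Tbr1 was lowest in CamK WT replicate 4, at 66.1 CPM, and highest in cKO replicate 6, at 120 CPM. In Grik the dentate sums were 230 to 247 CPM in WT and 205 to 233 CPM in the libraries labelled cKO. The part of dentate or CA1 cells in these values was not tested.

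**Figure D4:**
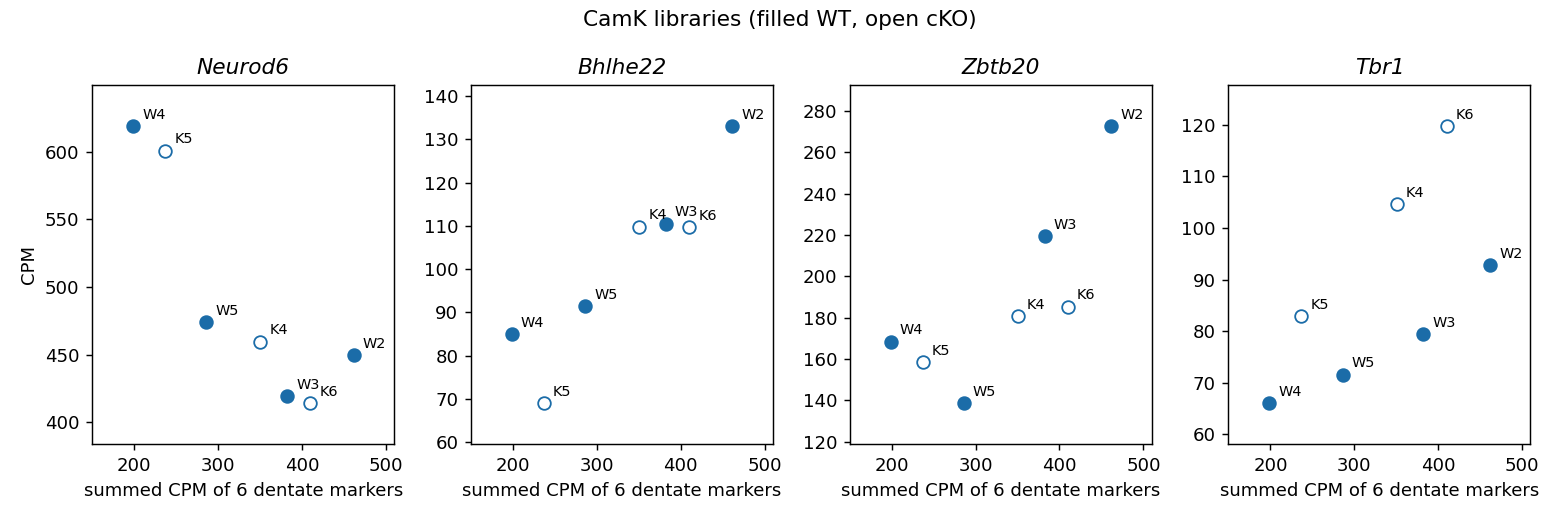
CPM of Neurod6, Bhlhe22, Zbtb20 and Tbr1 against the summed CPM of 6 dentate granule cell markers in the 7 CamK libraries; filled circles are WT (W) and open circles are libraries labelled cKO (K), with the replicate number. Neurod6 falls from 619 CPM in W4 to 449 CPM in W2, whereas Bhlhe22 goes from 85.0 to 133 CPM between the same libraries.

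The genotype comparison called none of the 9 factors in any population. By edgeR's quasi-likelihood test 0 of 9 passed in each population, where 0.0106% of all genes tested (2 genes) passed in each. Before adjustment 0, 0 and 4 members had a p under 0.05, against 7.05%, 4.88% and 5.85% of all genes. DESeq2 and limma-voom also called 0 members in each population. The members' median log2 difference was -0.0028 for CamK, -0.011 for Grik and 0.21 for SST; over all genes it was -0.0014, 0.0035 and 0.023.

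**Figure D5:**
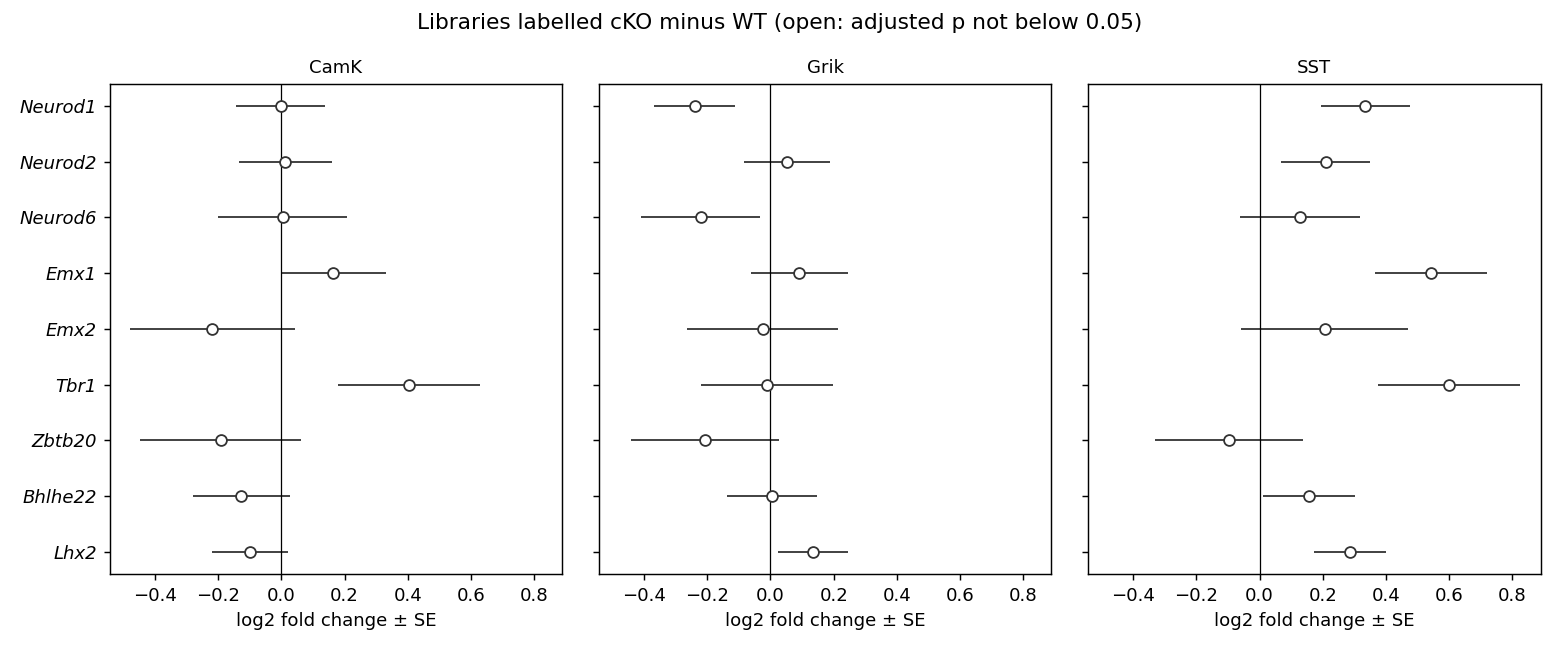
Log2 fold change ± SE of the libraries labelled cKO against WT for the 9 factors in CamK (n = 3 and 4), Grik (n = 4 each) and SST (n = 4 each); open circles mark an adjusted p not below 0.05. Every CamK and Grik value lies within 2 SE of 0, and 8 of 9 SST values are above 0.

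In CamK, Tbr1 had the largest difference, 0.40 (SE 0.22, adjusted p = 0.736), from 77.5 ± 11.6 CPM in WT to 102 ± 18.5 in the libraries labelled cKO, and the groups overlapped. Its 95% interval ran from 0.952-fold to 1.84-fold. Neurod1, Neurod2 and Neurod6 lay close to 0, with intervals from 0.813-fold to 1.22-fold, 0.813-fold to 1.25-fold and 0.745-fold to 1.35-fold. In Grik, Neurod1 was 27.8, 28.0, 23.9 and 24.6 CPM in WT and 22.7, 20.4, 21.5 and 23.7 CPM in cKO, a difference of -0.24 (SE 0.13, adjusted p = 0.992). Neurod1 and Lhx2 were the 2 members whose Grik groups did not overlap; 4.59% of all genes tested did so. The Grik intervals for Lhx2 ran from 0.934-fold to 1.29-fold, and those for Bhlhe22 from 0.816-fold to 1.24-fold.

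In SST, 8 of 9 members had a higher mean on the log2 scale in the libraries labelled cKO, without passing the test. Emx1 differed by 0.54 (SE 0.18, adjusted p = 0.833), Tbr1 by 0.60 (SE 0.22, adjusted p = 0.833), Neurod1 by 0.34 (SE 0.14, adjusted p = 0.833) and Lhx2 by 0.29 (SE 0.11, adjusted p = 0.833). These are the 4 with an unadjusted p under 0.05, and their groups overlapped. A single library stood out. Tbr1 was 3.66, 4.33, 6.46 and 10.5 CPM in SST cKO replicates 3, 4, 5 and 7, against 3.68 to 4.79 in WT. SST cKO replicate 7 was the highest of the 8 SST libraries for all 9 members, and it also had the highest Slc17a7, at 194 CPM against 67.7 to 124 in the others. Its interneuron marker sum was the lowest, at 6408 CPM against 7358 to 8932, and its oligodendrocyte-lineage sum the highest, at 922 CPM against 222 to 804. Without it, Tbr1 differed by 0.23, Emx1 by 0.31, Neurod1 by 0.22 and Lhx2 by 0.17, while Neurod6 turned to -0.07 and Emx2 to -0.18.

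The genotype effects were also compared between populations. By edgeR's quasi-likelihood test 0 of 9 members differed for CamK against Grik (0.00531% of all genes), CamK against SST (0.0%) or Grik against SST (0.0106%). The members with an unadjusted p under 0.05 numbered 0, 1 and 1 of 9, where 6.50%, 7.85% and 3.86% of all genes had one, and DESeq2 and limma-voom called none. The 2 were Lhx2 for CamK against SST (-0.39, SE 0.17, adjusted p = 0.617) and Neurod1 for Grik against SST (-0.58, SE 0.19, adjusted p = 1.0).

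The rest of the bHLH family was more often higher than lower in pyramidal cells against SST. Of 21 relatives, 18 were tested: 10 were higher and 5 lower in WT CamK than in WT SST, where 29.5% of all genes were higher and 30.5% lower, and their median log2 difference was 0.82. In WT Grik against WT SST 11 were higher and 3 lower, against 28.1% and 29.2% of all genes, with a median of 1.03. Bhlhe40, a rhythm- and activity-linked repressor, rose from 28.8 CPM in SST to 252 in CamK, 3.13 on the log2 scale (SE 0.11, adjusted p = 1.48e-17). Between the pyramidal populations 4 of the 18 were higher and 5 lower in CamK, close to the 20.9% and 21.1% of all genes. Bhlhe41, the paralog of Bhlhe40, was 50.9 CPM in CamK and 7.89 in Grik (2.69, SE 0.10, adjusted p = 3.37e-16). Nhlh2 was 0.543 and 5.51 CPM (-3.34, SE 0.29, adjusted p = 1.47e-09). Olig1 and Olig2, which mark the oligodendrocyte lineage, were also lower in CamK than in Grik, by -3.94 and -4.14 (SE 0.30 and 0.37), beside the oligodendrocyte markers given above.

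Among 7 partners and inhibitors of bHLH proteins, 1 was higher and 4 lower in WT CamK than in WT SST (29.5% and 30.5% of all genes), with a median log2 difference of -0.67. In WT Grik 0 were higher and 6 lower than in WT SST (28.1% and 29.2% of all genes), with a median of -1.25. Id proteins bind E proteins and keep them from DNA: Id3 was 18.9 CPM in SST and 2.16 in Grik, and lower still in CamK, with differences from SST of -4.91 (SE 0.22, adjusted p = 9.93e-16) and -3.13 (SE 0.19, adjusted p = 4.74e-13). Between the pyramidal populations 2 of the 7 were higher and 3 lower in WT CamK (20.9% and 21.1% of all genes), with a median of -0.24. Id2 separated these populations, at 44.5 CPM in CamK and 13.1 in Grik (1.77, SE 0.16, adjusted p = 4.92e-09). It stood at 31.0 CPM in SST, between them. The E protein Tcf12 was 37.4, 47.9 and 59.5 CPM in CamK, Grik and SST.

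A list of 9 genes held Ldb and Ssbp cofactors of LIM proteins such as Lhx2, and Lmo proteins, which carry LIM domains themselves. Of these, 7 were higher and 0 lower in WT CamK than in WT SST (29.5% and 30.5% of all genes), with a median log2 difference of 1.22. In WT CamK against WT Grik 7 were higher and 1 lower (20.9% and 21.1% of all genes), with a median of 0.53. Ldb2, which bridges LIM factors on DNA, was 113 CPM in CamK, 18.6 in Grik and 35.1 in SST, so it was higher in CamK than in Grik (2.61, SE 0.11, adjusted p = 1.02e-14) although Lhx2 itself was level. Lmo3 was 343, 190 and 65.8 CPM and Lmo4 was 243, 309 and 88.6 CPM in the same order. In WT Grik against WT SST 5 of the 9 genes were higher and 3 lower (28.1% and 29.2% of all genes, median 0.50).

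Among 18 homeobox, T-box and Zbtb relatives, 16 were tested. Of these, 3 were higher and 7 lower in WT CamK than in WT SST, against 29.5% and 30.5% of all genes, with a median log2 difference of -0.81. In WT Grik 5 were higher and 7 lower than in WT SST, against 28.1% and 29.2%, with a median of -1.06. Lhx6, the interneuron relative of Lhx2, is also among the 15 interneuron markers above. It was 293 CPM in SST against 0.861 in CamK and 0.883 in Grik, a log2 difference of -8.40 (SE 0.30, adjusted p = 3.1e-15) for CamK. Zbtb18, a zinc-finger relative of Zbtb20, was 820 CPM in CamK, 872 in Grik and 81.0 in SST. Between the pyramidal populations 1 of the 16 was higher and 2 lower in WT CamK (20.9% and 21.1% of all genes), with a median of -0.21. Lhx9 was 50.1 CPM in Grik, 9.85 in CamK and 2.37 in SST. It differed between CamK and Grik by -2.35 (SE 0.18, adjusted p = 2.4e-10).

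Of 30 other transcription factors of cortical excitatory neurons, 19 were higher and 7 lower in WT CamK than in WT SST, against 29.5% and 30.5% of all genes (median log2 difference 0.90). In WT Grik against WT SST 15 were higher and 9 lower; the 9 lower, of 30, were close to the 29.2% of all genes, of which 28.1% were higher (median 0.61). In WT CamK against WT Grik 17 were higher and 5 lower, against 20.9% and 21.1% of all genes (median 0.30). Pou3f1, a POU-domain factor also among the 5 CA1 markers above, was 152 CPM in WT CamK, 3.95 CPM in WT Grik and 4.48 CPM in WT SST. Fezf2, a zinc-finger factor, was 63.1, 36.0 and 3.39 CPM in the same order. Cux2 was 203 CPM in SST against 3.87 in Grik (-5.71, SE 0.26, adjusted p = 1.08e-13).

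The genes whose profile was most like each member were found by Pearson r of log2 CPM over the 23 libraries, which mostly reflects the gap between pyramidal and SST libraries. For Neurod1 the closest were Nfib (0.994), Anxa11 and Nrn1 (0.993 each). For Neurod2 they were Cebpa, Limd2 (0.997 each) and Bhlhe22 (0.995), and for Bhlhe22 Tbc1d14 (0.997), Neurod2 (0.995) and Limd2 (0.994). Neurod6 was closest to Crym (0.997), Rasgrp1 and Fam19a1 (0.996 each). Emx1 was closest to Inka2, Nrgn (0.996 and 0.995) and Rasal1 (0.994), and Tbr1 to Inka2 (0.994), Emx1 (0.992) and Gpd1 (0.991). Lhx2 was closest to Neurod2, Limd2 and Rtn4rl2 (0.994 each) and Emx2 to 6530402F18Rik (0.992), Map6d1 (0.988) and Sebox (0.986). Zbtb20 had the lowest values, with Tbc1d8b (0.982), 5330416C01Rik (0.980) and Slc26a4 (0.977), genes that were likewise higher in Grik than in CamK WT, as in Tbc1d8b at 23.7 and 10.7 CPM. Between 177 genes, for Zbtb20, and 663, for Neurod2, reached an r of 0.95.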

How the data were processed

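Polyadenylated RNA of 23 mouse hippocampal libraries was measured. The authors deposited a table of read counts per gene; per the submitters' processing notes Trimmomatic, STAR and the GRCm38 build were used, while versions, annotation, strand setting and cell isolation are not given in the sources used here. Of 45706 gene identifiers 45143 matched GENCODE M21, used here for positions and exon lengths. Summary rows that name no gene held 12.4 to 18.4% of each library and were left out. Counts were tested in edgeR 4.0.16 (R 4.3.3) with the quasi-likelihood test, trimmed-mean scaling, filterByExpr and 6 groups in 1 fit with 17 residual degrees of freedom; p-values were adjusted by Benjamini-Hochberg over 18823 genes, and an adjusted p under 0.05 was a call. The procedure was checked on simulated counts. The 95% intervals use the edgeR standard error. The members, markers and related-gene lists were chosen with earlier results of these data known. From each related list up to 4 called genes with the largest difference were eligible to be named, and the 3 genes nearest each member by correlation. Alternatives were DESeq2 1.42.0, limma-voom (limma 3.58.1), other scaling and filters, separate fits, a non-neuronal covariate, a replicate block and leaving out each of 23 libraries.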

Additional observations from a re-analysis of the deposited data

Results flagged for a closer look

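Within groups of 4 libraries, 5 of 45 combinations of gene and group held 1 library far from the other 3; about 1 in 20, or 2.25, would be so by chance. Neurod1 reached 3.56 CPM in SST cKO replicate 7, where the other 3 libraries lay at 2.67 to 2.73. In Grik WT replicate 5 Neurod2 was high, at 273 CPM, and Tbr1 low, at 61.2 CPM. In SST WT, Emx1 was high in replicate 3, at 1.31 CPM, and Emx2 low in replicate 5, at 0.936 CPM. CamK cKO, with 3 libraries, was not examined in this way.

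The targeted gene's genotype effect differed between populations by edgeR's quasi-likelihood test of the difference. For Khdrbs3 the log2 effect in CamK less that in Grik was -0.73 (adjusted p = 0.0154), and that in Grik less that in SST was 0.78 (adjusted p = 0.00135). No member met this criterion.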

How the results depend on the processing

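The 36 results of members against SST kept their call under all 31 alternatives, with a smallest log2 difference of 1.27 and a largest adjusted p of 0.000549. No member was called between genotypes, or between genotype effects, under any alternative.

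For WT CamK against WT Grik, where 3 members were lower and 0 higher, the non-neuronal covariate gave 1 higher and 0 lower with 3983 genes called in all (11.0% of genes higher, 10.1% lower). The fit of the compared populations alone gave 1 higher and 5 lower (4096 and 4130 of 17781 genes), and limma-voom gave 5 lower (22.0%). Without 1 library the count of higher members ranged from 0 to 1 (1 was Emx1, without CamK WT replicate 2 or SST cKO replicate 7), with 18.8 to 21.6% of genes higher. For the libraries labelled cKO, where 2 were lower and 1 higher, the covariate gave 0 lower with 4346 genes called (11.3% lower). The compared populations alone gave 2 higher and 6 lower (19.3% and 20.5% of genes), and limma-voom 2 higher and 7 lower (21.8% and 22.7%). DESeq2 and the CPM filter gave 2 higher each (18.5% and 22.5%), and no filter 0 higher (10.4%). Without 1 library, 0 to 2 were higher and 1 to 4 lower, with 14.2 to 18.2% of genes higher and 14.7 to 19.2% lower. The members that gained a call there were Emx1, Bhlhe22 and, without SST cKO replicate 4, Emx2.

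Genotype calls over all genes moved from 2 in CamK to 16 with DESeq2, 6 with limma-voom and 1 in CamK alone, and from 1 to 4 without 1 library. In Grik they moved from 2 to 14, 39 and 5, and from 1 to 9. In SST they moved from 2 to 11 with DESeq2, 0 with limma-voom, 1 without a filter, 1 with the covariate and 0 in SST alone, and from 0 to 3. Differences between effects gave, with DESeq2, 11 for CamK against Grik, 14 for CamK against SST and 4 for Grik against SST. CamK against SST gave 1 with limma-voom and 1 with the covariate. Without 1 library they ranged from 0 to 2 for CamK against Grik and from 0 to 1 for CamK against SST.

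Signs turned for some uncalled members. With the covariate, WT CamK against Grik went from -0.25 to 0.00070 for Neurod2, from -0.29 to 0.52 for Emx2 and from -0.24 to 0.086 for Bhlhe22, and the cKO comparison from -0.48 to 0.12 for Emx2 and from -0.23 to 0.00067 for Lhx2. Lhx2 in WT, at 0.0067, became -0.00037 with DESeq2 and with its size factors, and ranged from -0.041 to 0.038 without 1 library. For genotype in CamK, Neurod1 became 0.0043 with both of these, 0.0038 with the CPM filter and 0.021 with limma-voom, and ranged from -0.051 to 0.086. Neurod2 became -0.067 with the covariate (range -0.11 to 0.14), and Neurod6 -0.13 with the covariate and -0.0078 with limma-voom (range -0.17 to 0.14). Zbtb20 ranged from -0.33 to 0.0051 and Bhlhe22 from -0.23 to 0.064. For genotype in Grik, Bhlhe22 became -0.00053 with DESeq2 and its size factors and -0.017 with the covariate (range -0.032 to 0.027). Tbr1 became 0.018 with limma-voom (range -0.064 to 0.031), and Emx2 ranged from -0.078 to 0.012. For genotype in SST, Emx2 became -0.026 with the covariate (range -0.18 to 0.48), Neurod6 ranged from -0.067 to 0.32 and Zbtb20 from -0.30 to 0.047. The causes were not tested.

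Deviations of same-numbered libraries within a population correlated at -0.10 to 0.13. Differently numbered libraries were not compared in this way, so whether replicate numbers pair the libraries cannot be told. With the replicate block, WT CamK against Grik gave 1 higher member (20.5% of genes) and the cKO comparison 1 lower (15.9%). Genotype gave 4 genes in CamK, and CamK against Grik gave 0. The block turned Neurod1 (0.082) and Zbtb20 (0.060) in CamK, Neurod2 (-0.0089), Tbr1 (0.034) and Bhlhe22 (-0.071) in Grik, and Neurod6 (-0.072) and Emx2 (-0.094) in SST.

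Groups of 3 or 4 libraries limit the precision; depth was lowest for Emx1 and Emx2 in SST, counted on 44 to 250 reads.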
